A study of Oryctolagus cuniculus with 9 samples.

Results

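Cartilage collagens of types II, IX, X and XI were followed through rabbit knee tissue taken 12 weeks after a full-thickness cartilage defect. The members were chosen by gene symbol, not by their values. They are COL2A1, COL9A1, COL9A2, COL10A1, COL11A1 and COL11A2, 6 of the 14870 genes in the table, of which 11076 carry a symbol. COL9A3, which encodes the remaining chain of type IX collagen, matched no symbol and was not analysed here.

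The data are 9 RNA-seq libraries in 3 groups of 3, all from New Zealand white rabbits. Rabbits were 4 to 5 months old when selected for surgery, and defect tissue was taken 12 weeks after surgery. For the untreated group, a defect drilled into the trochlear groove of the left knee was left empty. For the CLCS group, the defect in the right knee received a scaffold made of bovine tendon type I collagen and chondroitin sulfate. The paper describes defects in both knees of a rabbit, so untreated and CLCS libraries may come from the same animals. Healthy cartilage served as the control and was cut from the condyle, so joint region and injury cannot be told apart in any comparison with it. The libraries of each group are numbered 1 to 3, with no statement of which rabbit each came from, so the p-values below measure the spread between these libraries. All values are normalized reads: gene read counts that the authors divided by a DESeq2 size factor for each library.

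Hyaline cartilage owes its tensile strength to a thin fibril network. Type II collagen, a homotrimer of the COL2A1 chain, makes up the bulk of each fibril, type XI collagen sits in its core and limits its diameter, and type IX collagen decorates its surface and is cross-linked to type II. Type X collagen forms a separate, non-fibrillar network laid down by hypertrophic chondrocytes, the cells of calcified and growth plate cartilage.

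Reads recovered over all genes summed to 724986 to 1226408 per library, and the lowest count of any member in any library was 13 reads. These sums hold only reads assigned to genes, and the sequencing depth listed in the paper is far higher. Shares of reads given below for the collagens and the most abundant feature refer to these sums. The 6 collagens together took 0.105% to 1.81% of all reads, and COL2A1 alone supplied 66.5% to 92.4% of these. The most abundant feature, ENSOCUG00000023467, has no symbol in the table and took 1.49% to 49.4% of reads, lowest in untreated replicate 3 and highest in CLCS replicate 3. ND6 held 86.0% to 94.4% of the reads of 13 mitochondrial protein genes, and the strand setting of the read counting is not given in the sources used here. Whether the strand setting affected the counts of the 6 collagens was not tested, so their values are read counts as deposited. Chondrocyte markers were present. ACAN, the core protein of the main cartilage proteoglycan, ranged from 99.7 to 574 normalized reads, whereas SOX9, the master transcription factor of the lineage, reached only 3.61 to 41.6 and COMP and CHAD matched no symbol.

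None of the 6 collagens passed the test in any comparison, although all 6 passed the filter on low counts in each. In every member the untreated group had the lowest mean. The CLCS mean was the highest of the 3 groups for COL2A1, COL9A1 and COL9A2, and lay between untreated and healthy for COL10A1, COL11A1 and COL11A2. The 3 untreated libraries differed widely among themselves. Untreated replicate 3 held the lowest value of 5 of the 6 members, and CLCS replicate 3 held the highest value of 4.

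COL2A1 (ENSOCUG00000013629), the chain of the main cartilage fibril, stood at 8610, 7968 and 6874 normalized reads in healthy replicates 1 to 3. Its untreated values were 8816, 4062 and 458, and its CLCS values were 8971, 9082 and 25533. Every CLCS library thus lay above every healthy and every untreated library, but CLCS replicate 1 exceeded untreated replicate 1 by very little, and the untreated libraries overlapped the healthy ones. The group means were 7817 ± 878 in healthy tissue, 4445 ± 4192 in untreated defects and 14529 ± 9531 in CLCS defects (SD, n = 3).

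For type IX collagen, COL9A1 (ENSOCUG00000012367) gave 17.9, 68.0 and 97.6 normalized reads in the healthy libraries, 95.3, 64.0 and 11.8 in the untreated ones and 70.3, 107 and 177 in the CLCS ones. No pair of groups was separated: healthy and untreated tissue each held 1 library far below its other libraries, and CLCS replicate 1 lay below healthy replicate 3 and untreated replicate 1. The means were 61.2 ± 40.3, 57.0 ± 42.2 and 118 ± 54.1 in the same order (SD, n = 3). Its partner chain COL9A2 (ENSOCUG00000015838) gave 166, 474 and 258 in healthy, 174, 172 and 19.9 in untreated and 193, 349 and 629 in CLCS tissue. All CLCS libraries were above all untreated libraries for this gene, by a narrow margin between 193 and 174, while both defect groups overlapped healthy tissue. The means were 299 ± 158, 122 ± 88.4 and 390 ± 221 (SD, n = 3).

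The type XI chains had a different order of groups. COL11A1 (ENSOCUG00000013367), the α1 chain of the fibril core, gave 325, 205 and 259 normalized reads in healthy tissue, 175, 109 and 82.5 in untreated defects and 96.1, 226 and 265 in CLCS defects. The 3 untreated values were all below the 3 healthy ones, and the CLCS values overlapped both groups. Means were 263 ± 60.1, 122 ± 47.6 and 196 ± 88.6 (SD, n = 3). COL11A2 (ENSOCUG00000016497), which encodes the α2 chain, gave 1065, 514 and 348 in healthy, 429, 359 and 68.9 in untreated and 421, 573 and 911 in CLCS tissue. Healthy replicate 1 was the highest library and untreated replicate 3 the lowest, and all groups overlapped. Means were 642 ± 375, 286 ± 191 and 635 ± 251 (SD, n = 3).

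COL10A1 (ENSOCUG00000001188), the type X collagen chain and a marker of hypertrophic chondrocytes, gave 108, 79.2 and 96.7 normalized reads in healthy, 38.6, 112 and 47.1 in untreated and 20.7, 107 and 121 in CLCS tissue. It was the only member whose lowest library was not untreated replicate 3 but CLCS replicate 1, and the groups overlapped throughout. Its means were 94.7 ± 14.7, 65.9 ± 40.2 and 82.9 ± 54.3 (SD, n = 3). Reads assigned to different collagens are not compared in level here, because transcript lengths were not used here.

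**Figure D1:**
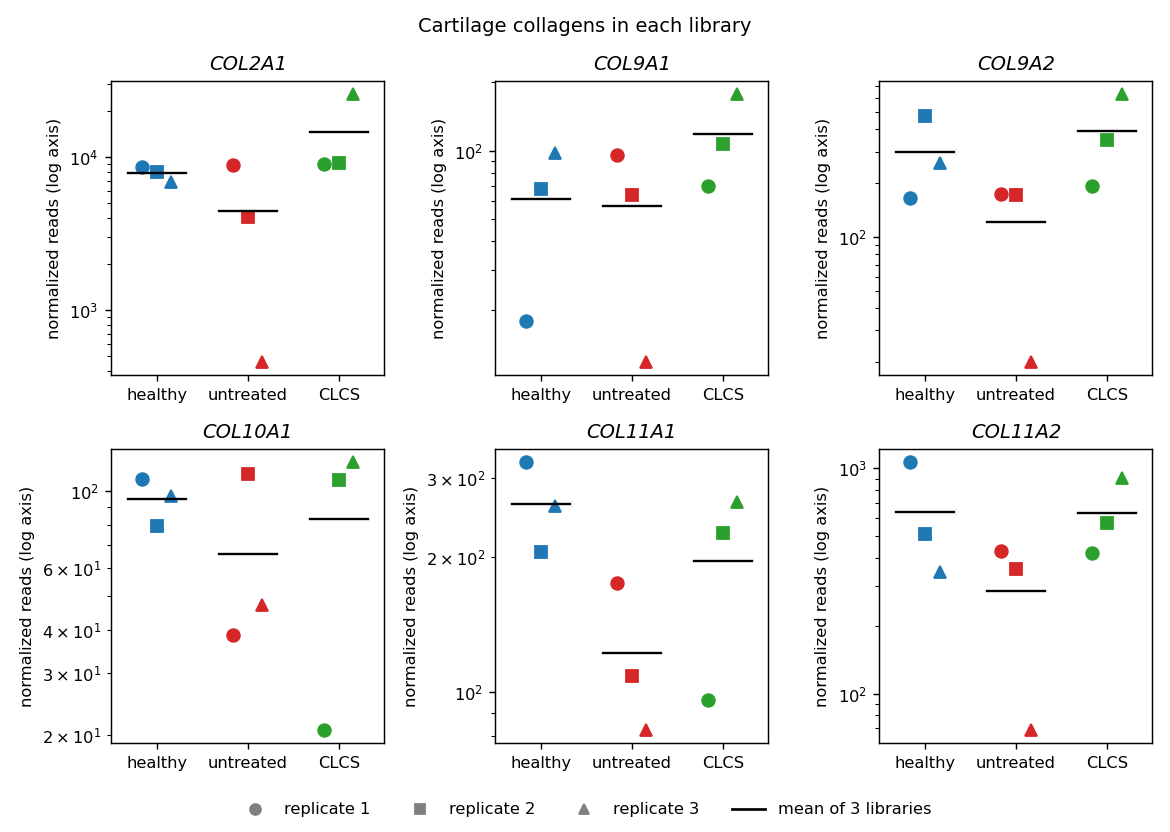
Normalized reads (log axis) of each collagen in the 9 libraries, by group, with a marker shape for each replicate number and a line at the mean of 3 libraries. Untreated replicate 3 is the lowest point in 5 panels, reaching 458 for COL2A1, and CLCS replicate 3 is the highest in 4, reaching 25533 for COL2A1.

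The first question is how an empty defect differs from healthy cartilage. All 6 members had a negative log2 fold change (untreated minus healthy), against 51.5% of the 3496 genes tested, with a median of -1.26 for the members and -0.017 for all genes. Fold changes were fitted by limma on the log2(normalized reads + 1) scale, which slightly understates changes of low genes. No member was called at an adjusted p below 0.05, where 2.55% of all genes were called. At an unadjusted p below 0.05 there was 1 member, COL11A1, against 16.6% of all genes, and it was also the 1 member with non-overlapping groups, against 22.0% of all genes. A share of 1 in 6 is close to both backgrounds. The members vary together across libraries, so their 6 signs are not separate observations.

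COL11A1 was lower in untreated defects by -1.15 on the log2 scale (SE 0.37, 95% interval -2.02 to -0.27, limma adjusted p = 0.169). Over the 12 alternative settings its fold change stayed between -1.15 and -1.10 and its adjusted p between 0.0847 and 0.380. The larger differences of COL9A2 (-1.67, SE 0.86, 95% interval -3.69 to 0.34) and COL2A1 (-1.61, SE 0.98, 95% interval -3.92 to 0.69) had far wider errors, with limma adjusted p of 0.402 and 0.504. The COL2A1 difference was only -0.80 with edgeR and -0.82 with DESeq2 on the recovered reads. COL11A2 differed by -1.38 (SE 0.75, adjusted p = 0.435), COL10A1 by -0.66 (SE 0.44, adjusted p = 0.537) and COL9A1 by -0.23 (SE 0.89, adjusted p = 0.946) in the same limma fit. These intervals are too wide to show that any of the 5 kept its healthy level.

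The size of these differences moved with single libraries. Without untreated replicate 3 the COL2A1 difference was -0.38 instead of -1.61, and that of COL9A2 was -0.65. COL11A2 changed from -1.38 to -0.55, and COL9A1 turned from -0.23 to 0.65. COL11A1 was the least affected of the fibril genes, at -0.90. Other libraries moved values the opposite way. Without untreated replicate 1 COL2A1 differed by -2.51, without untreated replicate 2 COL10A1 differed by -1.12, and without healthy replicate 1 COL9A1 differed by -0.94, none of them called. The summed level of 7 chondrocyte markers other than the members was 126 in untreated replicate 3. It was 329 to 354 in the other untreated libraries, 310 to 609 in CLCS tissue and 413 to 954 in healthy tissue. ACAN supplied 99.7 of the 126. The lowest CLCS sum, 310, was in replicate 1, where COL2A1 stood at 8971. MATN1, one of these markers, was at 0 in every library except healthy replicate 3, where it was at 1.81. In untreated replicate 3 the summed level of 8 monocyte and macrophage markers was 94.3, against 37.6 to 64.1 in the other 8 libraries, although CD163 was at a single read. ITGAM supplied 47.1 of this sum, against 16.5 to 29.5 in the other libraries. CSF1R (16.3) and MRC1 (4.53) were also highest there, but CD68 (19.9) and CD14 (3.63) were below CLCS replicate 1 (20.7 and 7.23). Whether fewer chondrocytes or less collagen RNA per chondrocyte underlay the collagen values cannot be told apart in bulk tissue, and the part of either marker list in the result was not tested.

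Spread within the untreated group was itself large. The SD of log2 values across the 3 libraries was 2.21 for COL2A1, larger than for 99.1% of 3812 genes, whose median SD was 0.43. COL9A2 (SD 1.76), COL9A1 (1.54) and COL11A2 (1.44) followed, while COL10A1 (0.80) and COL11A1 (0.54) were closer to the median. COL2A1 was among the steadier genes in healthy tissue, with an SD of 0.17 against a median of 0.48, where COL9A1 varied most of the members (1.25). In CLCS tissue COL10A1 had the widest spread (1.39), and COL2A1 had an SD of 0.87 against a median of 0.40.

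The second question is how a defect filled with CLCS differs from healthy cartilage. The log2 fold change (CLCS minus healthy) was above 0 for 4 of 6 members, against 44.9% of the 3294 genes tested. Its median was 0.21 over the members and -0.078 over all genes. No member was called, where 3.16% of all genes were, and none had an unadjusted p below 0.05, where 17.5% of all genes did. When replicate number was blocked, 1 member, COL9A1, was below that unadjusted threshold. COL2A1 was the 1 member with non-overlapping groups, against 24.2% of all genes.

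COL2A1 was higher in CLCS defects by 0.71 (SE 0.44, 95% interval -0.32 to 1.75, limma adjusted p = 0.462), and by 0.21 without CLCS replicate 3. COL9A1 differed by 1.14 (SE 0.64, 95% interval -0.36 to 2.64, limma adjusted p = 0.415), and by 0.43 without healthy replicate 1. It was higher with CLCS in 3 of 3 pairs of equal replicate number. Blocking on that number gave an SE of 0.36 and a limma adjusted p of 0.146. COL9A2 (0.35, SE 0.54) and COL11A2 (0.07, SE 0.48) were near 0 relative to their errors, and leaving out 1 library turned the sign of each. COL10A1 (-0.53, SE 0.64) and COL11A1 (-0.52, SE 0.43) had the negative values, and the sign of COL10A1 turned without CLCS replicate 1, to 0.27. That library also set the size of the COL11A1 difference, which was -0.08 without it. On the recovered reads COL10A1 was at -0.18 with edgeR and -0.17 with DESeq2. The 95% interval of COL11A2 ran from -1.06 to 1.19, so equality with healthy tissue was not shown.

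The direct comparison asks what the scaffold changed relative to an empty defect. All 6 members had a log2 fold change above 0 (CLCS minus untreated), against 49.5% of the 3275 genes tested, and the median was 1.41 for the members and -0.0041 for all genes. No gene of the whole table was called by limma, 0% of those tested, with 95 at an unadjusted p below 0.05. The counts from edgeR and DESeq2 on the recovered reads were also 0, with 88 and 76 genes at an unadjusted p below 0.05. By limma 1 member, COL9A2, was below that unadjusted threshold, against 2.90% of all genes, and blocking on replicate number left none. COL2A1 and COL9A2 were the 2 members with non-overlapping groups, against 8.34% of all genes, a larger share of the members than of the table but a count of only 2.

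COL2A1 was higher in CLCS than in untreated defects by 2.33 (SE 1.03, 95% interval -0.09 to 4.75, limma adjusted p = 0.996). COL9A2 was higher by 2.03 (SE 0.86, 95% interval 0.01 to 4.04, limma adjusted p = 0.996). COL11A2 differed by 1.45 (SE 0.70), COL9A1 by 1.37 (SE 0.75), COL11A1 by 0.62 (SE 0.47) and COL10A1 by 0.14 (SE 0.72), all with a limma adjusted p of 0.996.

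Set side by side, libraries of the same replicate number show how uneven this difference was. CLCS exceeded untreated for COL2A1 in 3 of 3 pairs, by 1.02-fold, 2.24-fold and 55.8-fold for replicates 1 to 3. COL9A2 was likewise higher in 3 of 3, by 1.11-fold, 2.03-fold and 31.5-fold. The third pair was thus the extreme one for both, and the first showed almost no difference.

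COL9A1 was higher with CLCS in 2 of 3 pairs, at 0.737, 1.68 and 15 times the untreated level. COL11A1 (0.549, 2.08 and 3.21 times) and COL11A2 (0.981, 1.60 and 13.2 times) were also higher in 2 of 3. COL10A1 was higher in only 1 of 3, at 0.535, 0.958 and 2.56 times. With both libraries of replicate 3 left out, an alternative chosen after seeing these values, the log2 difference was 0.59 for COL2A1, 0.58 for COL9A2, 0.32 for COL11A2, 0.15 for COL9A1, 0.09 for COL11A1 and -0.47 for COL10A1. With untreated replicate 3 alone left out, COL2A1 differed by 1.09 and COL9A2 by 1.01.

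**Figure D2:**
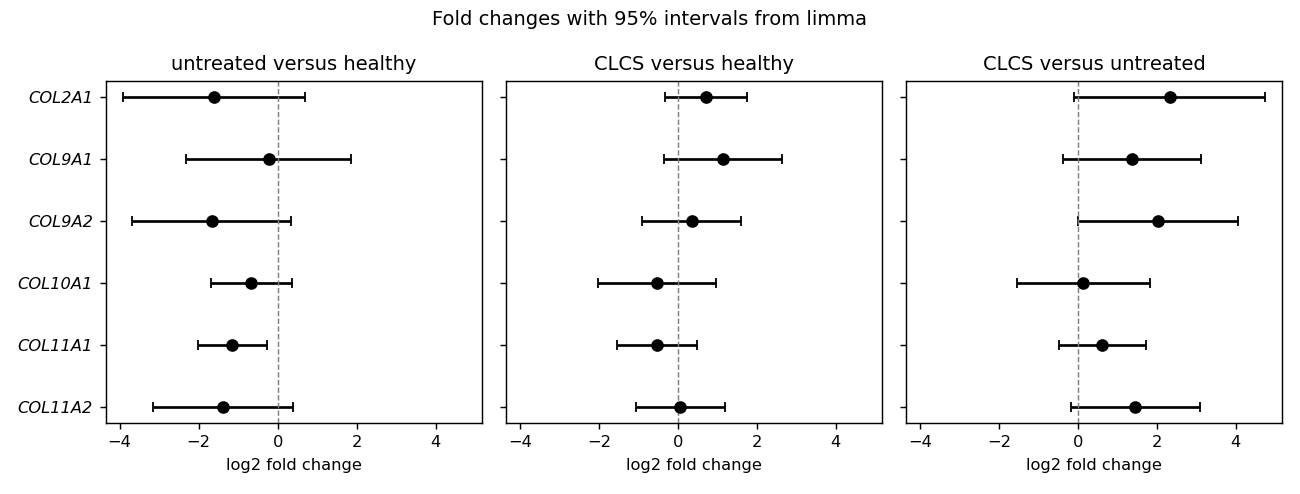
Log2 fold change of each collagen in the 3 comparisons, fitted by limma on log2(normalized reads + 1), with 95% intervals. All 6 points lie below 0 for untreated versus healthy and above 0 for CLCS versus untreated, and the only intervals that leave out 0 are COL11A1 in the first (-2.02 to -0.27) and COL9A2 in the last (0.01 to 4.04), both before adjustment for the number of genes.

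**Figure D3:**
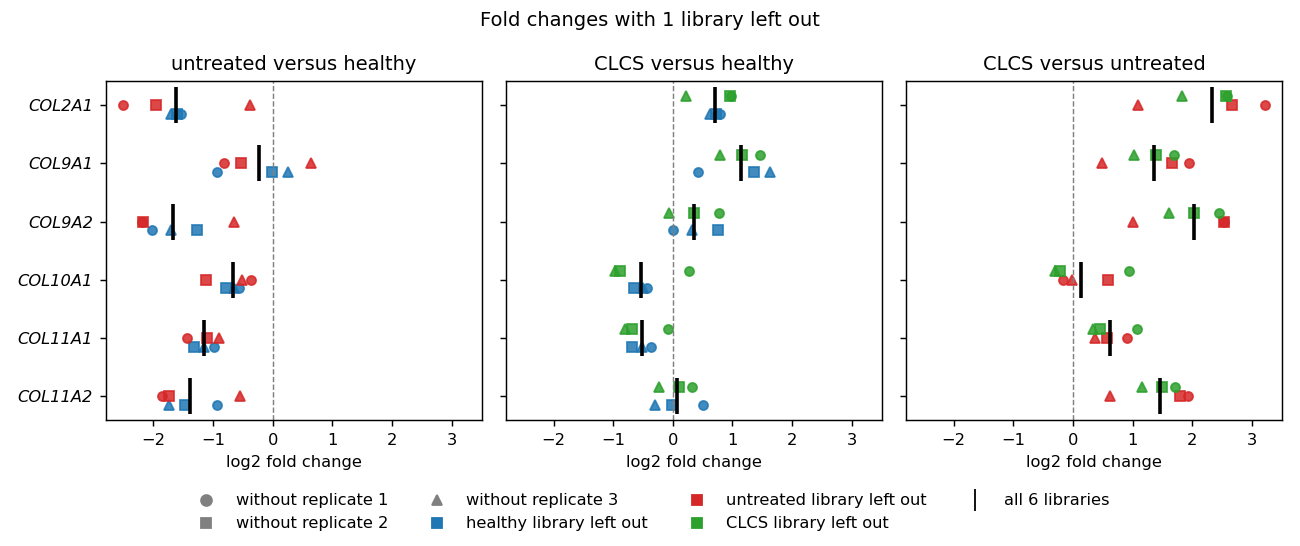
Log2 fold change of each collagen with 1 library left out in turn; colour gives the group of the library left out, marker shape its replicate number and the black bar the value from all 6 libraries. Leaving out untreated replicate 3 (red triangles) moves COL2A1 from -1.61 to -0.38 against healthy and from 2.33 to 1.09 for CLCS against untreated.

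Ratios within a library do not depend on its scaling, so 6 ratios were compared between the 3 pairs of groups, 18 comparisons in all. With 3 libraries against 3, a two-sided exact permutation test cannot give a p below 0.1, so none could pass 0.05, and the lowest adjusted p was 0.3. COL1A2 encodes the α2 chain of type I collagen, which marks bone and fibrous tissue. The ratio of COL2A1 to COL1A2 sets type II against type I collagen, and does not tell bone from fibrous matrix. It was 47.8, 157 and 195 in the healthy libraries, 8.70, 5.27 and 0.50 in the untreated ones and 8.16, 12.9 and 37.8 in the CLCS ones. Both defect groups lay wholly below healthy tissue and overlapped each other.

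On the log2 scale the COL2A1 to COL1A2 ratio averaged 6.80 ± 1.08 in healthy, 1.51 ± 2.20 in untreated and 3.99 ± 1.14 in CLCS tissue (SD, n = 3). The difference from healthy was -5.30 in untreated defects (SE 1.41, exact permutation p = 0.1) and -2.82 in CLCS defects (SE 0.90, exact permutation p = 0.1). CLCS exceeded untreated by 2.48 (SE 1.43, exact permutation p = 0.2). COL1A2 itself was at 88.6 ± 79.5, 900 ± 123 and 825 ± 238 normalized reads in the 3 groups (SD, n = 3). It rose by 3.68 and 3.53 on the log2 scale over healthy in untreated and CLCS tissue (limma adjusted p = 0.0292 and 0.0288), and COL1A1, which encodes the α1 chain, rose by 3.79 and 3.95 (adjusted p = 0.0398 and 0.0277). Since COL2A1 itself differed by -1.61 and 0.71, the change in COL1A2 was the larger term of the ratio in both comparisons.

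Among the cartilage collagens themselves, COL11A1 relative to COL2A1 was lower in all CLCS than in all healthy libraries, by -1.24 on the log2 scale (SE 0.45, exact permutation p = 0.1). The groups were apart by a narrow margin, between -5.32 in CLCS replicate 2 and -5.27 in healthy replicate 2. The ratio of the type IX chains, COL9A2 to COL9A1, was 2.75, 3.26 and 3.56 in the CLCS libraries and 1.83, 2.69 and 1.69 in the untreated ones. These did not overlap, with a log2 difference of 0.66 (SE 0.24, exact permutation p = 0.1), and the healthy libraries, at 9.26, 6.97 and 2.65, overlapped both. The ratio of the type XI chains, COL11A2 to COL11A1, overlapped in every comparison, as did COL9A1 and COL10A1 relative to COL2A1.

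**Figure D4:**
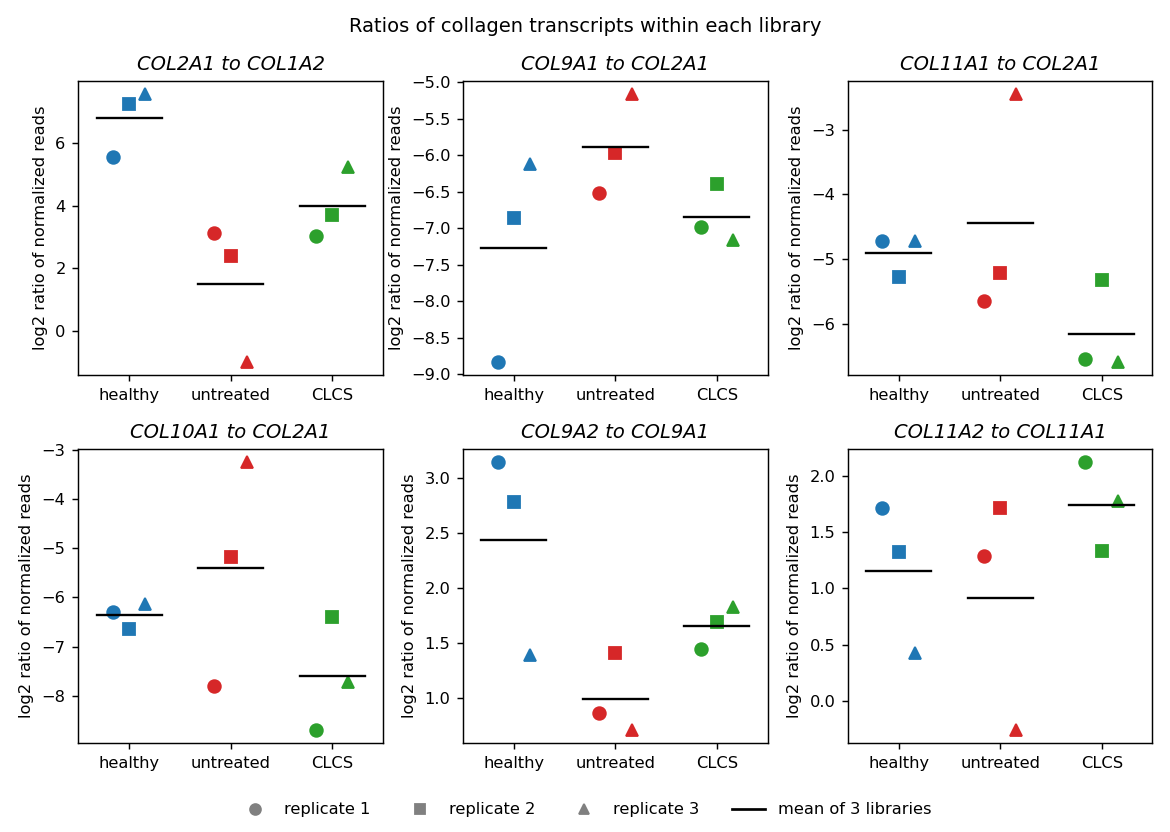
Log2 ratios of normalized reads of 2 collagen genes in each library, by group, with a line at the mean of 3 libraries. The COL2A1 to COL1A2 ratio averages 6.80 in healthy, 1.51 in untreated and 3.99 in CLCS tissue, and untreated replicate 3 is the only library in which it is below 0.

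Over the 9 libraries the members of the type II fibril followed one another, a description only, since the points share library, depth and group. Pearson's r of log2 values with COL2A1 was 0.93 for COL9A2, 0.92 for COL11A2, 0.77 for COL9A1 and 0.67 for COL11A1, with Spearman's rho of 0.63, 0.72, 0.75 and 0.43. COL10A1 stood apart from the type II and IX genes, with r of 0.25 for COL2A1, 0.16 for COL9A1 and 0.40 for COL9A2. Without untreated replicate 3 the r with COL2A1 was 0.67 for COL9A2, 0.65 for COL11A2, 0.44 for COL9A1 and COL11A1 and 0.05 for COL10A1, so the high values rested largely on that library.

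Of 3806 other genes, 6 had an r above 0.9 with COL2A1. The nearest was ENSOCUG00000023467, the most abundant feature of the table, with r = 0.96 and rho = 0.68. Next came STARD5, a sterol-binding protein gene (r = 0.95), CD40LG, which encodes the ligand of CD40 (0.91), TTC32 (0.91) and ENSOCUG00000003598 (0.90). Their rho with COL2A1 was 0.60, 0.47, 0.75 and 0.32 in the same order. Without the 2 libraries farthest from the median of COL2A1, untreated replicate 3 and CLCS replicate 3, r was 0.31 for ENSOCUG00000023467 and 0.79 for STARD5. CD40LG ranged only from 0.907 to 18.1 normalized reads, near the counting limit. The genes nearest to the mean of the 6 standardized members were ENSOCUG00000023467 (0.96), FIBIN (0.93), ACAN (0.92), ZNF512B (0.92) and NGEF (0.91). Without the 2 libraries farthest from the median of that mean, CLCS replicate 1 and untreated replicate 3, r was lower. It was then 0.90, 0.60, 0.65, 0.89 and 0.51 in the same order. ACAN moved with the collagens from 99.7 in untreated replicate 3 to 524 in CLCS replicate 3, although its highest value was 574 in healthy replicate 1.

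**Figure D5:**
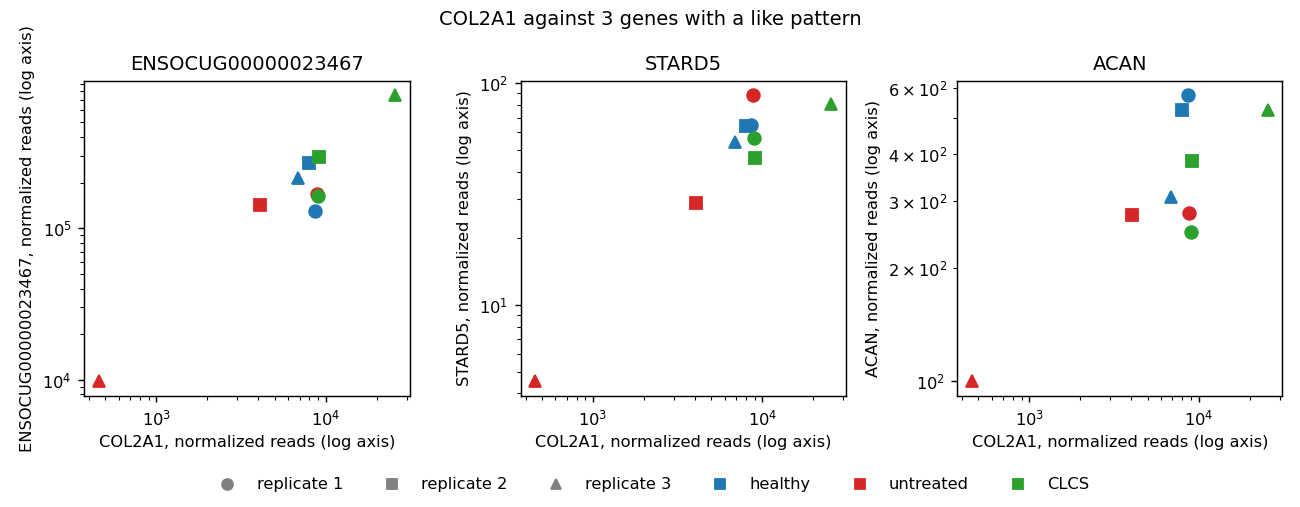
COL2A1 against ENSOCUG00000023467, STARD5 and ACAN in the 9 libraries, all in normalized reads on log axes, with colour for group and marker shape for replicate. Untreated replicate 3 sits alone at the lower left of each panel, at 458 for COL2A1, and CLCS replicate 3 at the far right, at 25533.

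Genes of the collagen pathway were counted from lists by role. Among 10 tested collagens of other fibrillar and fibre-associated types, COL1A1 and COL1A2 were the only ones called, higher in both defect groups. The other 8 were not called in either comparison with healthy tissue.

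Of cartilage matrix proteins, 8 were tested in untreated and 7 in CLCS tissue against healthy. CILP, a protein of the mid-zone cartilage matrix, fell in both, from 801 to 109 normalized reads (-2.78, SE 0.50, limma adjusted p = 0.0381) and to 136 (-2.39, SE 0.43, adjusted p = 0.0361). At an unadjusted p below 0.05, 5 of 8 were lower in untreated defects and 2 of 7 in CLCS defects, and none was higher. Over all genes 16.6% and 17.5% were below that threshold in either direction, so that 2 of 7 is not far from the share in the table. The median log2 fold change of the list was -1.41 in untreated and -0.74 in CLCS tissue, against -0.017 and -0.078 for all genes. In CLCS against untreated tissue all 7 tested were above 0, with a median of 0.87 against -0.0041 for all genes, and none was called.

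Upstream of the collagen genes, 3 transcription factors passed the filter and none was called. HIF1A, the hypoxia-inducible factor that supports chondrocyte matrix synthesis, had log2 fold changes of -2.42 in untreated and -2.10 in CLCS tissue (limma adjusted p = 0.148 and 0.120). DLX5, a homeobox factor of chondrocyte and bone differentiation, gave -1.29 and -1.06 (adjusted p = 0.152 and 0.344). SOX9 was too low to be tested, at 33.0, 41.6 and 3.61 normalized reads in healthy, 4.73, 4.0 and 3.63 in untreated and 4.13, 7.87 and 11.2 in CLCS libraries. Its healthy libraries disagreed among themselves, since replicate 3 was as low as the untreated ones.

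None of the 8 tested genes of procollagen modification, folding and secretion was called. The smallest p values were those of PLOD2, a lysyl hydroxylase (-1.26, SE 0.61), and PPIB, a prolyl isomerase (-0.35, SE 0.32), in untreated tissue. In CLCS tissue they were those of MIA3, which loads procollagen into transport carriers (-0.90, SE 0.31), and PLOD2 (-0.82, SE 0.39).

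None of the 7 genes of procollagen trimming and cross-linking was called either. LOXL3, a lysyl oxidase-like enzyme, had a log2 fold change of -2.38 (SE 0.66, limma adjusted p = 0.121) and BMP1, the C-propeptidase of fibrillar procollagens, 2.60 (SE 0.74, adjusted p = 0.127) in untreated tissue. In CLCS tissue BMP1 stood at 2.88 (SE 0.71, adjusted p = 0.0833) and PCOLCE2, an enhancer of that cleavage, at -0.88 (SE 0.34, adjusted p = 0.236). Of 5 collagen receptors tested, none was called. ITGA2, an integrin subunit, had the smallest p in both, at 0.69 (SE 0.38) and 1.04 (SE 0.33), followed by ITGB1 in untreated tissue at 0.64 (SE 0.45) and ITGA11 in CLCS tissue at -0.18 (SE 0.27).

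On the side of breakdown, 1 of 5 tested proteases was called. MMP13, the collagenase that cleaves type II collagen, rose from 4.13 normalized reads in healthy tissue to 85.7 in untreated defects (4.04, SE 0.32, limma adjusted p = 0.00513) and to 39.7 in CLCS defects (2.95, SE 0.31, adjusted p = 0.0104). Against untreated tissue it differed by -1.10 in CLCS tissue (SE 0.35, limma adjusted p = 0.996). MMP13 also belongs to the list of hypertrophic chondrocyte genes, of which 7 were tested against healthy tissue. IBSP, the bone sialoprotein of mineralized tissue, was the other call on that list, higher in CLCS defects by 2.46 (SE 0.40, limma adjusted p = 0.0277) and at 2.24 in untreated defects (SE 0.63, adjusted p = 0.125). COL10A1, the best known gene of that state, was not among those called. At an unadjusted limma p below 0.05, 3 of the 7 were higher and 2 lower in untreated defects, against 16.6% of all genes. The 2 lower were CLEC3A (-3.37, SE 1.09) and PTH1R (-0.85, SE 0.27). In CLCS defects 4 of 7 were higher and 0 lower, against 17.5% of all genes.

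Markers of other tissues differed in part between the groups. The summed level of 8 bone markers was 967 to 2735 in healthy, 1336 to 4300 in untreated and 3018 to 3204 in CLCS libraries, with SOST at 0 in all but 1 library. That of 7 osteoclast markers was 6.32 to 34.9, 68.0 to 165 and 46.1 to 170. Both defect groups were wholly above healthy tissue for the osteoclast list, and CLCS was for the bone list, while the untreated bone sums overlapped healthy tissue. SPARC weighed heavily in the bone sums, at 2023 of the 2735 in healthy replicate 1. In untreated libraries IBSP alone was wholly above healthy tissue (559 to 2323 against 192 to 512). So was BGLAP (140 to 216 against 37.0 to 126), while DMP1, ALPL and SPARC overlapped healthy tissue. Of these markers IBSP in CLCS tissue was the 1 called among 5 bone markers tested, and neither of the 2 osteoclast markers tested was called. The part of bone and osteoclast RNA in the collagen values was not tested. Lists for fibroblasts (59.9 to 387, 74.0 to 227 and 107 to 168 for 9 genes), endothelium (54.2 to 71.0, 39.9 to 71.0 and 50.2 to 63.0 for 8) and lymphocytes (116 to 142, 81.6 to 132 and 77.2 to 116 for 6) overlapped between groups. ESAM, at 35.4 to 69.0, was most of the endothelial sum in every library, and CD79B with CD5 most of the lymphocyte sum. These 2 overlaps thus rest mainly on those genes. Within the fibroblast list, POSTN, a matrix protein of fibrous tissue and periosteum named here after its values were seen, rose from 2.54 normalized reads in healthy tissue to 67.5 in untreated and 63.3 in CLCS defects, by 4.69 on the log2 scale in both (limma adjusted p = 0.0286 and 0.0168). DCN of the same list differed by -2.22 and -1.79 and was not called (limma adjusted p = 0.259 and 0.273). The part of fibrous tissue RNA in the collagen values was not tested. MFAP5 was above 0 in CLCS replicate 3 alone, and CD2 was at 0 in all but 1 library. VWF was at 0 in all healthy libraries, untreated replicate 1 and CLCS replicates 1 and 3, and at no more than 1.97 elsewhere. Erythroid markers (1.01 to 9.03 over the 9 libraries for 3 genes) and skeletal muscle markers (5.44 to 46.1 for 6) stayed low.

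In the RefSeq annotation of the rabbit assembly mOryCun1.1, which is not the build of the read counts and was used only for gene order, 2 members had a measured gene overlapping or within 1000 bases. NT5DC1, which overlaps COL10A1, was at 0 to 5.65 normalized reads. RXRB, next to COL11A2, was at 9.03 to 41.5 in healthy, 15.4 to 120 in untreated and 42.3 to 102 in CLCS libraries. RXRB and COL11A2 both had their lowest untreated value in replicate 3, but RXRB was higher in untreated replicate 2, at 120, where COL11A2 was at 359. Whether reads of these neighbours were shared was not tested.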

How the data were processed

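Poly(A) RNA of 9 tissue samples was sequenced. Per the study's methods, reads were aligned with TopHat and Bowtie to oryCun2.0, unique alignments were counted with eXpress, and the authors normalized the counts with DESeq2. Versions, the annotation release and the strand setting are not given in the sources used here. The deposited signal values are counts divided by a size factor. Dividing by the smallest value above 0 gave whole reads (within 0.01) for 100% of values. The 3 healthy columns stood in both deposited tables and were used once. Coordinates and sequences were not used here.

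Genes passing edgeR's filterByExpr were tested with limma (3.58.1, R 4.3.3) on log2(value + 1), 3 libraries against 3, with Benjamini-Hochberg adjustment over all tested genes and a threshold of 0.05. This was checked on simulated data. Alternatives were edgeR (4.0.16) quasi-likelihood and DESeq2 (1.42.0) on recovered reads, limma with trend, 3 other scalings, pseudocounts 0.5 and 5, no filter, a mean of at least 10 reads, 1 fit over all 9 libraries, a replicate block and leaving out each library. Ratios within libraries used two-sided exact permutation tests.

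Whether equal replicate numbers pair libraries was checked by the correlation of their deviations from group means over 3812 genes. It was 0.25, 0.33 and 0.30 for CLCS with untreated and 0.28, 0.14 and 0.19 for CLCS with healthy, but 0.29, 0.13 and -0.04 for untreated with healthy. The first 2 were taken as paired from the data alone, as no label ties numbers to animals. Pairing both with CLCS would also pair untreated with healthy, where replicate 3 gave -0.04, so the pairing is uncertain. The main limma p-values do not use it, and the replicate block is given as an alternative.

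The 6 members were named by symbol. Named from the pathway lists were the genes called against healthy or, where none was, the 2 with the smallest p, besides the 5 genes most like COL2A1 and the 5 most like the members' mean, neighbours within 1000 bases, ND6 and the most abundant gene. SOX9, ACAN and single markers were named for the check of the tissue. Members and lists were chosen with earlier results of these data known.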

Additional observations from a re-analysis of the deposited data

How the results depend on the processing

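No collagen was called in any comparison under any of the 12 alternative settings, with 1 library left out or with both libraries of replicate 3 left out. Over all genes, the 89 calls of untreated versus healthy became 275 with DESeq2, 171 with 1 fit over all 9 libraries and 20 with no filter, and 1 to 9 with 1 library left out, whichever it was. The 104 calls of CLCS versus healthy became 243 with DESeq2, 13 with no filter and 0 to 75 with 1 library left out (75 without healthy replicate 2, 53 or fewer without any other). Both became 0 without replicate 3. With a replicate block the counts were 94, 125 and 0, and no collagen's call changed, though 2, 1 and 0 collagens were then below an unadjusted p of 0.05, against 1, 0 and 1 without it. Scaling to the total without the most abundant gene moved the median of all genes to -0.20 (CLCS versus healthy) and -0.15 (CLCS versus untreated).

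Signs turned for small differences. For CLCS versus healthy, COL11A2 was -0.0029 with edgeR, -0.00022 with DESeq2 and -0.063 with that scaling. COL10A1 in CLCS versus untreated was -0.012 with it. With libraries left out, COL9A1 ranged from -0.94 to 1.13 (untreated versus healthy, highest without both replicate 3 libraries and 0.65 without untreated replicate 3). In CLCS versus healthy, COL9A2 ranged from -0.11 to 0.78, COL10A1 from -0.97 to 0.27 and COL11A2 from -0.59 to 0.51. In CLCS versus untreated, COL10A1 ranged from -0.47 to 0.94. The log2 ratio of COL9A1 to COL2A1 ranged from -0.36 (without healthy replicate 1) to 0.997 in CLCS versus healthy. In untreated versus healthy, COL11A1 to COL2A1 ranged from -0.52 to 1.07, COL10A1 to COL2A1 from -0.13 to 2.15 and COL11A2 to COL11A1 from -0.63 to 0.35, each turning sign without untreated replicate 3 and the last also without healthy replicate 1. The causes were not tested. Counts as low as 13 reads and 3 libraries a group limit precision.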
